A study of Drosophila melanogaster with 6 samples.

Results

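The UDP-glycosyltransferases described here are the 35 probe sets whose 1 annotated gene symbol is Ugt followed by a family number and a letter, of 18769 probe sets on the array without the controls. Each belonged to a different gene, so the 35 probe sets stood for 35 genes, and the gene table of the fly assembly lists the same number of Ugt symbols. The genes fall into 13 numbered families, of which family 37 has 8 genes, family 35 has 6, families 36 and 303 have 4 each, families 49 and 302 have 3 each, and 7 families have 1. The signal was measured in heads of male Drosophila melanogaster. Single-housed males lived at 1 fly per vial, and group-housed males at 10 flies per vial, for 6 days after eclosion. Each condition had 3 arrays, and each array carried RNA of 20 pooled heads frozen in the early evening. Strain and genotype are not given in the labels, which name no allele or driver for either group. A pool of whole heads mixes brain, eye, antenna, fat body, muscle and cuticle.

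UDP-glycosyltransferases move a sugar from a UDP-sugar, in insects mainly UDP-glucose, onto small lipophilic molecules, which makes these more soluble and easier to excrete. They sit in the membrane of the endoplasmic reticulum and are counted among the conjugating enzymes of detoxification, which act on foreign compounds and on products of cytochrome P450s. In flies they are known from fat body, gut and Malpighian tubule, and some from the antenna, where they are thought to help clear odorants.

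All levels below are normalized log2(intensity + 16), and all differences are single-housed minus group-housed on that scale, where 1 unit is a doubling of the intensity plus 16. Errors are the SD over 3 arrays for a level and limma's standard error (SE) for a difference, with n = 3 arrays per group. Levels of different genes come from different probes and have no common scale, so levels are not compared between genes. A probe set was tested if its mean over the 6 arrays lay above 4.69, the cutoff that removed the dimmest 30%. Markers of head tissue were present. The photoreceptor genes trp, Arr1 and Arr2, 3 found of 6 listed, had means of 11.67 to 13.30, the neuronal gene elav 9.56 in single-housed heads against 9.73 in group-housed heads, and the glial gene repo 8.97 against 8.93. The 7 male reproductive tract genes had means of 4.22 to 5.40, near the cutoff, and 5 of them were tested. Passing the filter is therefore no detection call.

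Of the 35 Ugt genes, 24 passed the filter (68.6%, against 70% of all probe sets), and 11 did not. Families differed in how many members passed. All 4 genes of family 36 passed, with means over the 6 arrays of 6.43 to 7.60, and 5 of 6 in family 35, where the means of all 6 ran from 4.53 to 10.57. Family 37, the one with the most genes, had 3 of 8, with means of 4.25 to 7.74. Families 302 and 49 had 3 of 3 and 2 of 3, and family 303 had 2 of 4, all 4 of them dim with means of 4.53 to 5.04. The lone members of families 50, 301, 305, 316 and 317 passed, while those of families 304 and 307, at 4.62 and 4.60, did not.

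**Figure D1:**
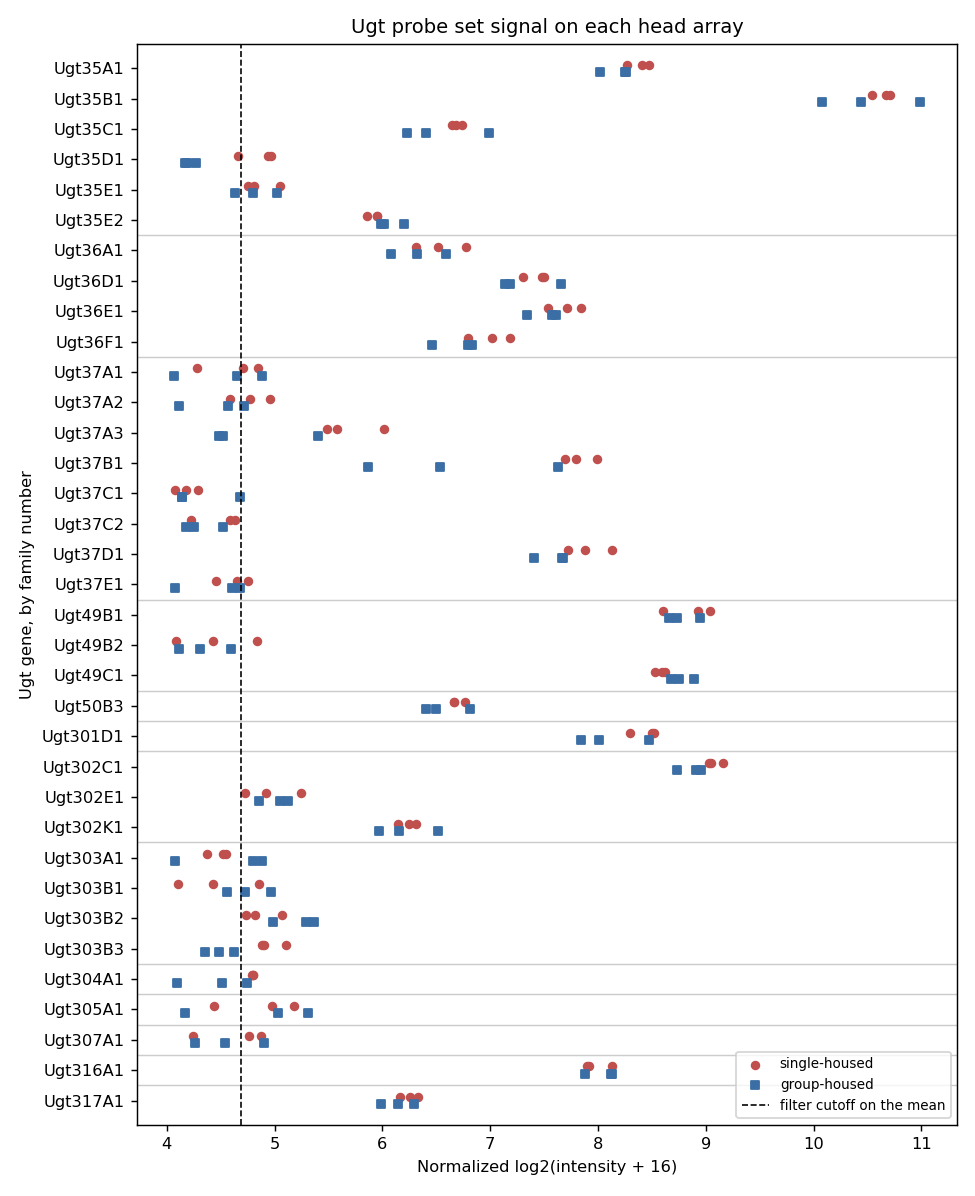
Normalized log2(intensity + 16) of each of the 35 Ugt probe sets on each of the 6 arrays, grouped by family number, with single-housed arrays as circles and group-housed arrays as squares. The dashed line is the filter cutoff at 4.69; 5 of the 8 family 37 genes have means left of it, and the 3 group-housed squares of Ugt37B1 lie between 5.87 and 7.63.

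No Ugt gene passed the threshold of adjusted p 0.05 (0 of 24 in limma, smallest adjusted p 0.46, with 5 at unadjusted p under 0.05), where 0.0152% of all 13138 probe sets tested did. Without the test, the members leaned to one side. Of the 24 genes, 19 had a higher mean in single-housed heads and 5 a lower one, that is 79.2% above 0 against 45.4% of all probe sets tested. Their median difference was 0.13, and that of all probe sets tested was -0.017. At unadjusted p under 0.05 there were 5 genes higher in single-housed heads, 20.8% of the 24, where 4.57% of all probe sets tested were higher at that level. There were 0 lower (limma, 0 past adjusted p 0.05), against 3.67% of all probe sets. The genes at that level were Ugt37B1, Ugt37A3, Ugt37D1, Ugt303B3 and Ugt302C1, and 3 of these 5 belong to family 37. Ugt303B3 passed the filter only through its single-housed arrays, and over the 23 genes with both group means above the cutoff there were 4 higher (17.4%, against 4.48% of all such probe sets). Most differences were small. In 17 of 24 the difference was smaller than 0.25 in size, and the whole range was -0.34 to 1.15.

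Both numbers depended on single arrays. Without group-housed replicate 2 the count at unadjusted p under 0.05 was 9 higher of 26 tested (34.6%), where the share of all probe sets was also up, at 6%. It was 3 without single-housed replicate 1 (12.5%, against 3.69% of all probe sets), without single-housed replicate 2 (12%, against 2.56%) and without group-housed replicate 3 (12.5%, against 3.69%). The median difference was 0.039 without group-housed replicate 3.

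The groups did not overlap for 8 of the 24 genes, 6 higher and 2 lower in single-housed heads. This is 33.3% of them, against 14.2% of all probe sets tested, of which 6.23% were higher and 7.95% lower. Over the 23 genes with both group means above the cutoff it was 7, with 5 higher and 2 lower (30.4%, against 13.9% of all such probe sets). With the scaling as deposited, 7 were higher and 1 lower, where all probe sets tested were at 11% higher and 1.23% lower. Apart only as deposited were Ugt36E1, Ugt49B1 and Ugt317A1, which were higher, and Ugt303B2, which was lower. The groups stayed apart in both scalings, in the same direction, for 4 genes, which were Ugt37B1, Ugt37A3, Ugt303B3 and Ugt302C1. All 4 were higher in single-housed heads (16.7%, against 4.84% of all probe sets tested that were higher in both scalings), and 3 of them had both group means above the cutoff.

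**Figure D2:**
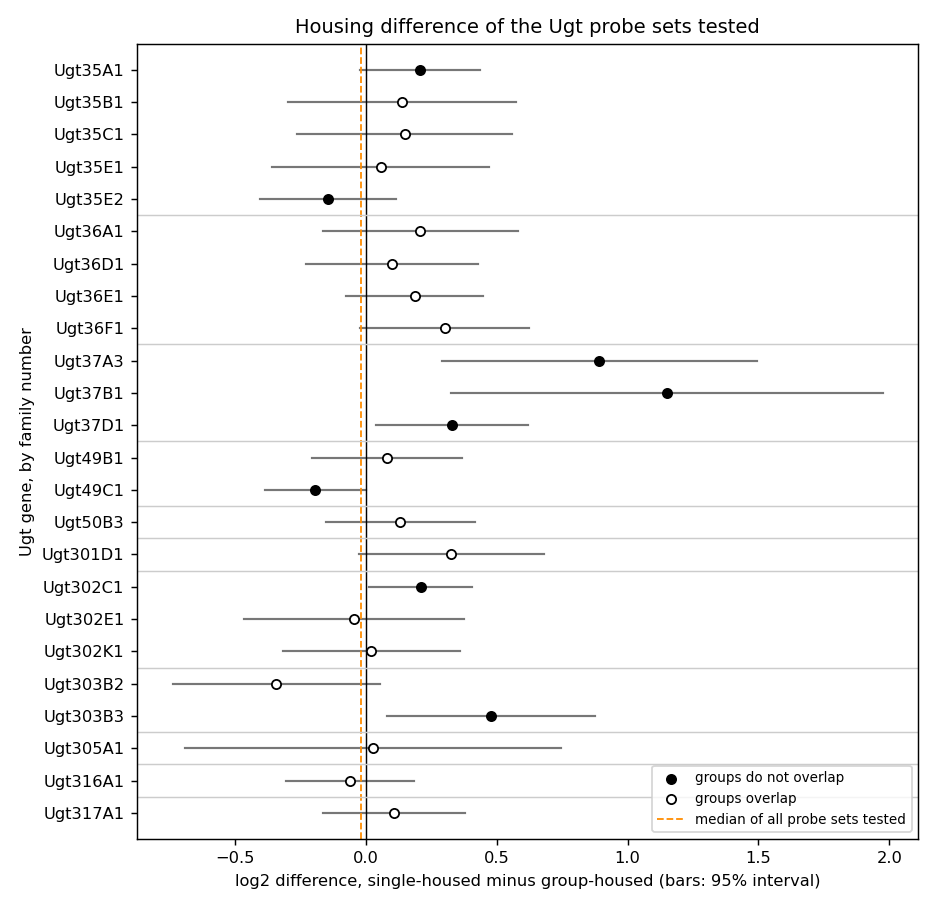
Log2 difference, single-housed minus group-housed, of the 24 Ugt genes tested, by family number, with 95% intervals of the limma fit; filled points are the 8 genes whose groups did not overlap. The dashed line is the median of all probe sets tested at -0.017, and the intervals of Ugt37B1, Ugt37A3, Ugt303B3, Ugt37D1 and Ugt302C1 lie above 0.

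Family 37 held the widest differences. Ugt37B1 was at 7.70, 7.99 and 7.80 on single-housed replicates 1, 2 and 3, against 5.87, 7.63 and 6.54 on group-housed replicates 1, 2 and 3. All 3 single-housed arrays were above all group-housed ones, but group-housed replicate 2 lay just under them and far above the other two. As deposited, the intensities were 218.9, 259.5 and 192.2 in single-housed heads, against 41.4, 157.6 and 79.2 in group-housed heads. The difference was 1.15 (SE 0.36), a 2.22-fold higher signal with a 95% interval of 1.25 to 3.93, and limma gave an adjusted p of 0.499. The SD was 0.15 over the single-housed and 0.89 over the group-housed arrays. Ugt37B1 was the 1 Ugt gene that passed in any alternative. Its adjusted p was 0.0257 without group-housed replicate 2, where the difference was 1.63, and 0.0347 with the scaling as deposited. Over the other 14 alternatives it did not pass, and the difference was 0.75 without group-housed replicate 1. With the robust form of eBayes in limma its unadjusted p was 0.0692 and its adjusted p 0.642.

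Ugt37A3 had the same order of arrays within the group-housed samples. It was at 5.49, 6.02 and 5.58 in single-housed heads, against 4.49, 5.40 and 4.52 in group-housed heads. The 2 lower group-housed arrays lay below the filter cutoff, and replicate 2 was again near the single-housed values. The difference was 0.89 (SE 0.265), 1.86-fold with an interval of 1.22 to 2.82 (adjusted p 0.46). Because the signal was low, its size depended on the added intensity, at 1.65 with a pseudocount of 1 and 0.39 with a pseudocount of 64. Ugt37D1, whose probe set carries the suffix that Affymetrix gives to probes shared by several transcripts, was at 8.13, 7.88 and 7.72 in single-housed heads, against 7.66, 7.67 and 7.40 in group-housed heads. Here the groups nearly touched, and group-housed replicate 3 rather than 1 was lowest. The difference was 0.33 (SE 0.13, adjusted p 0.567), and as deposited the groups overlapped. The other 5 genes of family 37, Ugt37A1, Ugt37A2, Ugt37C1, Ugt37C2 and Ugt37E1, were too dim to test.

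**Figure D3:**
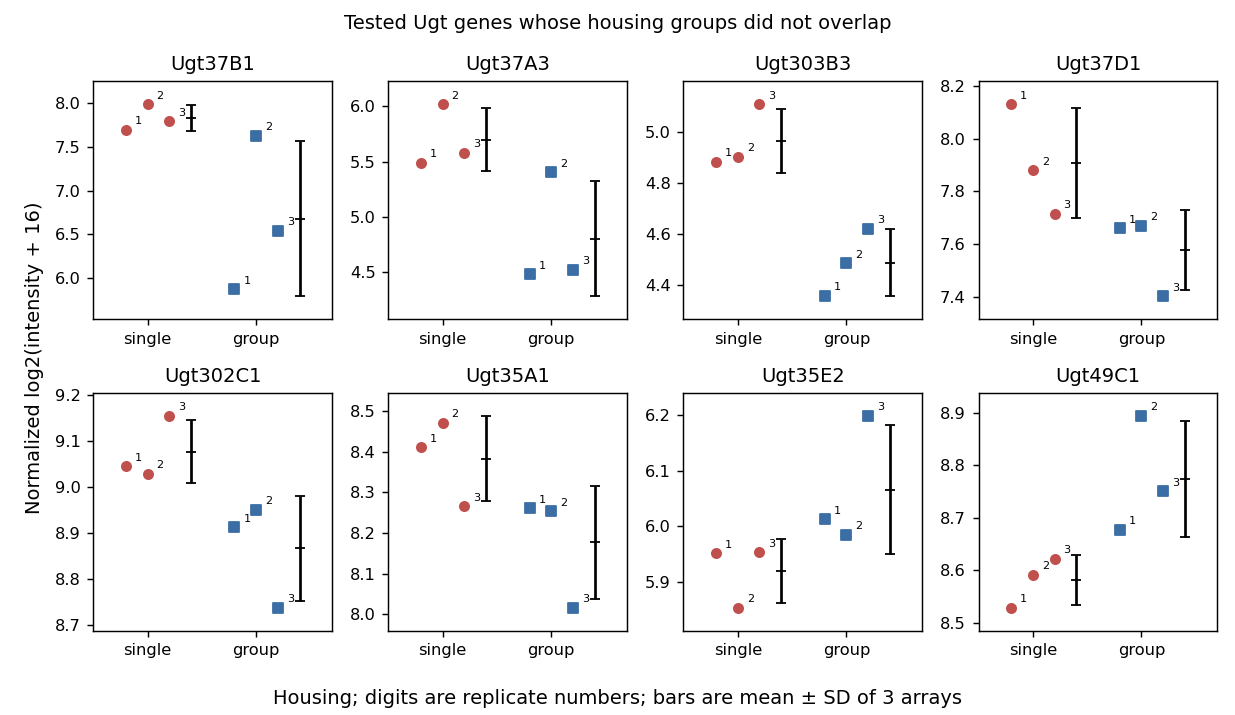
Normalized log2(intensity + 16) on each array of the 8 tested Ugt genes whose groups did not overlap, with replicate numbers beside the points, mean ± SD of 3 arrays beside each group, and a separate vertical scale in each panel. In Ugt37B1 and Ugt37A3 group-housed replicate 2, at 7.63 and 5.40, stands near the single-housed points, while Ugt35E2 and Ugt49C1 are lower in single-housed heads.

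Family 303 went both ways. Ugt303B3 was at 4.88, 4.90 and 5.11 in single-housed heads, against 4.36, 4.49 and 4.62 in group-housed heads. It is the 1 tested member with a group mean below the cutoff, so it passed the filter only through the single-housed arrays and had to differ to be tested at all. The difference was 0.48 (SE 0.175, adjusted p 0.561), and 1.16 and 0.17 with pseudocounts of 1 and 64. Its close neighbour Ugt303B2 was at 5.07, 4.81 and 4.73 in single-housed heads, against 5.29, 5.36 and 4.99 in group-housed heads. The groups overlapped, though not as deposited, and the difference of -0.34 (SE 0.175, adjusted p 0.652) was the lowest of the 24. The remaining 2 genes, Ugt303A1 and Ugt303B1, were not tested.

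In family 302, Ugt302C1 was at 9.05, 9.03 and 9.16 in single-housed heads, against 8.91, 8.95 and 8.74 in group-housed heads. The arrays within each group lay close together, and the difference of 0.21 (SE 0.087) was 1.16-fold, with an interval of 1.01 to 1.33 (adjusted p 0.594). Without group-housed replicate 3 it was 0.15. Ugt302K1 and Ugt302E1 were at 0.021 (SE 0.15) and -0.047 (SE 0.185), so the median of the family was 0.021. That median had no settled direction, at 0.17 without group-housed replicate 2 and -0.017 without single-housed replicate 1. Ugt301D1, the lone member of its family, was at 8.52, 8.50 and 8.30 in single-housed heads, against 8.01, 8.47 and 7.84 in group-housed heads. As in Ugt37B1, group-housed replicate 2 was high, here inside the single-housed range. The difference was 0.33 (SE 0.155, adjusted p 0.629), 0.51 without that array (adjusted p 0.13) and 0.20 without group-housed replicate 3 (adjusted p 0.818).

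Family 35 includes a gene known from the antenna. Ugt35B1, long known as Ugt35b and first described from the antenna, was at 10.71, 10.54 and 10.67 in single-housed heads, against 10.99, 10.44 and 10.08 in group-housed heads. The single-housed arrays lay within those 3, and the difference was 0.14 (SE 0.19, adjusted p 0.89), 0.38 with group-housed replicate 1 left out and -0.078 with replicate 3 left out. The olfactory co-receptor gene Orco had the same order over the group-housed arrays, with 8.22, 8.00 and 7.62 on replicates 1, 2 and 3. It did not over the single-housed ones, with 7.45, 7.51 and 8.07. Of the other olfactory markers found, lush, Obp83b and Obp28a had that group-housed order too. Obp19d was level on replicates 1 and 2, and Ir25a differed, at 5.78, 5.96 and 5.85 on group-housed replicates 1, 2 and 3. Ugt35A1, which lies beside Ugt35B1 in the genome, was at 8.41, 8.47 and 8.27 in single-housed heads, against 8.26, 8.25 and 8.02 in group-housed heads. Single-housed replicate 3 and the upper 2 group-housed arrays nearly touched, and the difference was 0.21 (SE 0.10, adjusted p 0.643). Ugt35E2 was the other way, at 5.95, 5.85 and 5.95 in single-housed heads, against 6.01, 5.98 and 6.20 in group-housed heads, with a difference of -0.15 (SE 0.11, adjusted p 0.774). For both genes the groups overlapped as deposited. Ugt35C1, formerly Ugt86Dd and known for its part in nicotine resistance of fly larvae, was at 6.74, 6.65 and 6.69 in single-housed heads, against 6.23, 6.99 and 6.41 in group-housed heads. Its single-housed arrays were almost level and its group-housed arrays spread on both sides of them (difference 0.15, SE 0.18). Ugt35E1 was at 0.056 (SE 0.18). Over the 5 tested genes the median difference was 0.14, but -0.038 without group-housed replicate 3.

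All 4 genes of family 36 had a higher mean in single-housed heads, with a median of 0.20 and differences of 0.099 to 0.30. The groups of each overlapped after normalization, while those of Ugt36E1 did not overlap as deposited. Ugt36E1, which is known to act in olfactory neurons in the discrimination of sex pheromones, was at 7.53, 7.84 and 7.71 in single-housed heads, against 7.57, 7.61 and 7.34 in group-housed heads (difference 0.19, SE 0.115, adjusted p 0.707). Its probe set also carries the suffix for shared transcripts. Ugt36F1 was at 0.30 (SE 0.14, adjusted p 0.625) and Ugt36D1 at 0.099 (SE 0.145). Ugt36A1, also called Dorothy, whose regulatory region drives a widely used line for blood and pericardial cells, was at 0.21 (SE 0.16).

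Family 49 lay on both sides of 0. Ugt49C1 was at 8.53, 8.59 and 8.62 in single-housed heads, against 8.68, 8.89 and 8.75 in group-housed heads. The single-housed arrays were all lower, with a difference of -0.19 (SE 0.086, adjusted p 0.61) and 1.14-fold more signal in group-housed heads, but the groups overlapped as deposited, where the difference was -0.050. Its genomic neighbour Ugt49B1 was at 8.61, 9.04 and 8.93 in single-housed heads, against 8.73, 8.94 and 8.66 in group-housed heads (difference 0.080, SE 0.13, adjusted p 0.91). Among the families with 1 gene, Ugt316A1 was at 7.90, 8.13 and 7.91 in single-housed heads, against 8.12, 8.13 and 7.88 in group-housed heads, a difference of -0.061 (SE 0.11, adjusted p 0.917). Ugt50B3 was at 6.67, 6.67 and 6.77 in single-housed heads, against 6.81, 6.50 and 6.40 in group-housed heads (difference 0.13, SE 0.125, adjusted p 0.814). Its group-housed arrays lay on both sides of the single-housed ones. Ugt317A1 was at 6.16, 6.26 and 6.33 in single-housed heads, against 6.29, 6.15 and 5.98 in group-housed heads (difference 0.11, SE 0.12, adjusted p 0.846). Ugt305A1 was the least settled of these, at 5.18, 4.44 and 4.97 in single-housed heads, against 5.03, 5.31 and 4.17 in group-housed heads, with a difference of 0.026 (SE 0.32, adjusted p 0.991).

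The 11 genes left out as dim had means over the 6 arrays of 4.25 to 4.62. Of these, 8 had a higher and 3 a lower mean in single-housed heads, with differences of -0.29 to 0.64. The groups did not overlap for Ugt35D1 and Ugt304A1. Ugt35D1 was at 4.94, 4.66 and 4.97 in single-housed heads, against 4.17, 4.27 and 4.19 in group-housed heads, which as deposited were intensities of 15.0, 8.55 and 17.5, against 1.80, 2.19 and 3.09. Its group-housed signal was thus near the bottom of the scale on all 3 arrays. When the filter was dropped, its difference of 0.64 (SE 0.14) had an adjusted p of 0.437. Ugt304A1 was at 4.79, 4.80 and 4.80 in single-housed heads, against 4.51, 4.09 and 4.74 in group-housed heads (adjusted p 0.726 without the filter). Ugt307A1, the lone member of its family, was at 4.76, 4.25 and 4.87 in single-housed heads, against 4.27, 4.54 and 4.90 in group-housed heads (adjusted p 0.981 without the filter).

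The arrays of group-housed heads were the more variable for this family. In 20 of the 24 genes the SD was larger over the group-housed than over the single-housed arrays (83.3%, against 58.3% of all probe sets tested). The residual SD ran from 0.085 for Ugt49C1 to 0.64 for Ugt37B1, with a median of 0.19 where that of all probe sets tested was 0.16. Group-housed replicate 3 was the lowest of the 6 arrays for 13 of 24 genes (54.2%, against 20.2% of all probe sets tested). After normalization, group-housed replicate 2 was the highest of its group for 16 of 24, and no share over all probe sets is given. This order depended in part on the scaling. As deposited, that array had the lowest median, at 24.2, against 27.6 and 31.2 for group-housed replicates 1 and 3. Replicate 1 was then the highest of its group for Ugt36E1, Ugt37D1 and Ugt302C1, while replicate 2 stayed the highest for Ugt37B1 and Ugt37A3. Centred on each gene's mean, the median of the 24 genes was 0.11, 0.090 and 0.047 on the single-housed arrays, against -0.038, 0.064 and -0.22 on the group-housed arrays. By this median of normalized values group-housed replicate 2 stood among the single-housed arrays, and replicate 3 stood apart below. Gene by gene, group-housed replicates 1 and 2 did not differ in this. Each was at or above the lowest single-housed array for 14 of 24 genes, and replicate 3 for 7. The linear normalized intensities of the 35 genes summed to 5272 to 5351 on single-housed arrays, against 4052 to 5236 on group-housed arrays. Such a sum weighs the probe sets with the most signal, above all Ugt35B1 (10.08 to 10.99 over the arrays), whose groups overlapped. It is therefore no measure of the family as a whole.

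The other detoxification families and the head fat body markers were read on the same arrays. The 30 tested glutathione S-transferase (Gst) genes had a centred median of 0.075, 0.083 and 0.017 on single-housed arrays, against 0.045, 0.0051 and -0.25 on group-housed arrays. Group-housed replicate 3 was low for them too. For the 74 tested cytochrome P450 genes the group-housed values were -0.054, -0.0077 and -0.059. The median difference was 0.15 for the Gst genes and 0.089 for the P450 genes. Above 0 were 23 of 30 Gst genes and 51 of 74 P450 genes, where 45.4% of all probe sets tested were. At unadjusted p under 0.05, 5 Gst genes were higher and 1 lower, and 16 P450 genes were higher and 4 lower (limma, 0 past adjusted p 0.05). Of all probe sets tested, 4.57% were higher and 3.67% lower at that level. The lean to single-housed heads was thus not particular to the Ugt genes.

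**Figure D4:**
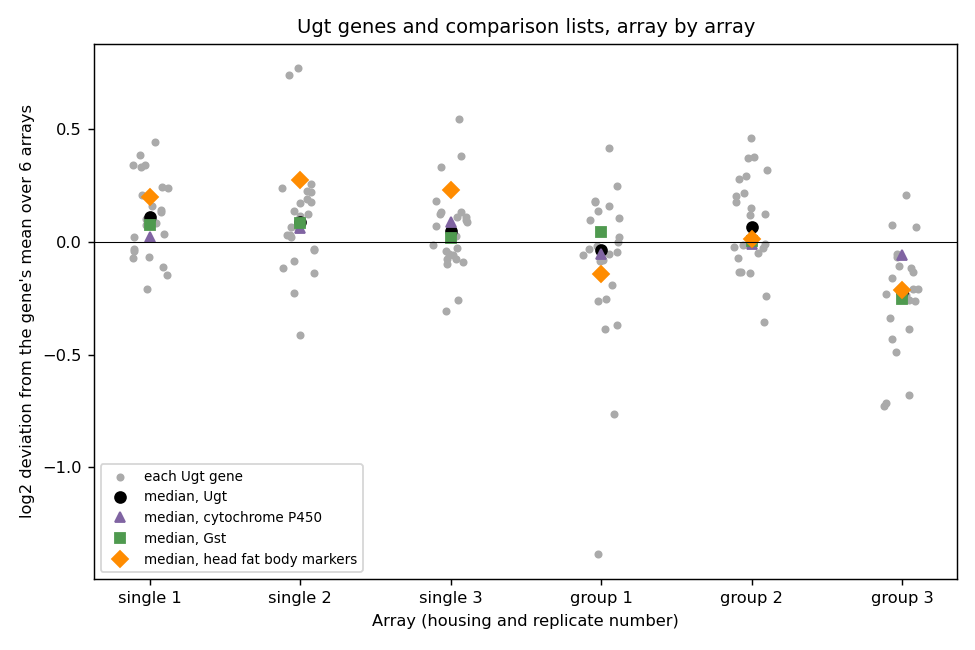
Log2 deviation of each of the 24 tested Ugt genes from its own mean over the 6 arrays (grey points), with the median of the Ugt, cytochrome P450, Gst and head fat body lists on each array. The Ugt median is between 0.047 and 0.11 on the single-housed arrays, 0.064 on group-housed replicate 2 and -0.22 on group-housed replicate 3.

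Head fat body markers shared part of this pattern. Of the 9 listed, 8 were found and tested. In single-housed heads 7 of them were higher, with a median difference of 0.47, where 45.4% of all probe sets tested were above 0. At unadjusted p under 0.05 there were 5 higher and 0 lower (limma, 0 past adjusted p 0.05), against 4.57% and 3.67% of all probe sets tested. The summed intensity of the 8 markers was 32770 to 35220 on single-housed arrays, against 21690 to 29170 on group-housed arrays. The larval serum protein gene Lsp2 was at 12.75, 12.81 and 12.80 in single-housed heads, against 11.64, 12.57 and 9.25 in group-housed heads. The secreted peptide gene fit was at 11.06, 11.22 and 11.27, against 9.87, 10.55 and 8.97. In both, group-housed replicate 2 was the highest and replicate 3 the lowest of its group, as in 4 of the 8 markers. Obp99b had replicate 2 highest and replicate 1 lowest, the order of Ugt37B1 and Ugt37A3. The other markers did not all follow. Lsd-1 and Cyp4d21 were at 0.56 (SE 0.22) and 0.38 (SE 0.068), but apolpp and FASN1 at only 0.058 (SE 0.058) and 0.11 (SE 0.064). The bmm gene was lower in single-housed heads, at -0.26 (SE 0.15). In bmm and apolpp group-housed replicate 3 was the highest of its group. In all, replicate 2 was the highest of its group for 5 of the 8, and the lowest was replicate 1 for 3, replicate 2 for 1 and replicate 3 for 4. Gut proteases and other gut markers were also higher in value, with 6 of 6 found above 0 and a median difference of 2.47. At unadjusted p under 0.05, 4 of the 6 were higher and 0 lower (limma, 0 past adjusted p 0.05). All probe sets tested were at 4.57% and 3.67%. Their summed intensities were 802 to 2793 on single-housed arrays, against 108.8 to 979 on group-housed arrays. In these gut markers group-housed replicate 1 was the highest of its group. For instance alphaTry was at 8.42, 4.36 and 5.68 on group-housed replicates 1, 2 and 3. Of the olfactory markers 2 of 6 were above 0, with sums of 14010 to 16200, against 13820 to 17570. Hemocyte markers had 4 of 5 above 0, with sums of 1180 to 1323 in single-housed heads, against 989.5 to 1401 in group-housed heads. Glial markers had 4 of 4 above 0, with a median difference of 0.11. Neuronal markers had 1 of 3 and photoreceptor markers 0 of 3 above 0. Malpighian tubule was represented by 1 of its 3 markers, ZnT35C, at 5.22 in single-housed heads against 5.02 in group-housed heads. The part of other cell types in the Ugt differences was not tested, and in pooled heads fewer cells of a type and less RNA per cell cannot be told apart.

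Many Ugt genes lie side by side. In the RefSeq gene table, 22 of the 35 genes stand in 7 runs with no other protein-coding gene between them. The longest, on chromosome arm 3R, holds 6 genes, Ugt35E1, Ugt35E2, Ugt35B1, Ugt35A1, Ugt304A1 and Ugt303A1. Neighbours did not share 1 direction in every run. The 4 tested genes of that run had differences of -0.15 to 0.21. The run of Ugt303B3, Ugt303B1 and Ugt303B2 held the lowest difference of the 24 tested genes, at -0.34, beside one of 0.48. The 3 genes of the Ugt36 run on arm 2L were all above 0, at 0.099 to 0.30. Ugt37A3 stands beside Ugt37A2, which was not tested, at 4.96, 4.58 and 4.77 in single-housed heads, against 4.57, 4.12 and 4.71 in group-housed heads.

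Genes that supply these enzymes or act beside them, where tested, had differences of -0.30 to 0.36. Of the 10 listed genes of UDP-sugar supply 8 were tested, 5 of them above 0 with a median of 0.047. Of all probe sets tested, 45.4% were above 0. At unadjusted p under 0.05 there was 1 higher (limma, 0 past adjusted p 0.05), against 4.57% of all probe sets tested. This gene was Galk, the galactokinase, at 0.36 (SE 0.155, adjusted p 0.605). UGP, the enzyme that makes UDP-glucose, was at -0.063 (SE 0.20), with a signal close to the cutoff, and sgl, which turns UDP-glucose into UDP-glucuronic acid, at 0.057 (SE 0.099). Among 6 genes listed as regulators of the response to foreign compounds, 2 were above 0. The transcription factor gene cnc, known to switch on detoxification genes in flies, was at 0.26 (SE 0.18), and Keap1, its repressor, at 0.041 (SE 0.12). The gene of the binding partner, maf-S, was at 10.34, 10.31 and 10.26 in single-housed heads, against 10.68, 10.45 and 10.61 in group-housed heads. Its groups did not overlap, with a difference of -0.27 (SE 0.077, adjusted p 0.441). The groups of ss did not overlap either, with a difference of -0.23 (SE 0.11, adjusted p 0.645). The nuclear receptor gene Hr96 was at -0.057 (SE 0.082). Of 4 efflux transporters, Mdr65, a pump of the blood-brain barrier, had the lowest difference at -0.30 (SE 0.095, adjusted p 0.499), and its groups did not overlap. Mdr50 had the highest at 0.27 (SE 0.175). Of the sulfotransferases, which also conjugate small molecules, St1 was at 0.23 (SE 0.11) and St3 at 0.028 (SE 0.11), and St2 and St4 were too dim to test. Cyt-b5 was at 0.11 (SE 0.053, adjusted p 0.633), with all single-housed arrays above all group-housed ones. Of all probe sets tested, 14.2% had groups that did not overlap. At unadjusted p under 0.05 in limma, maf-S (p 0.00686) and Mdr65 (p 0.0116) were lower. These were 1 of the 6 listed regulators and 1 of the 4 transporters, with 0 higher in either list and 0 past adjusted p 0.05. All probe sets tested were at 3.67% lower and 4.57% higher at that level.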

How the data were processed

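The deposited values were signal intensities per probe set on a linear scale. Per the labels, RNA was extracted with Trizol and biotin labelled by a standard Affymetrix protocol. The sources used here name no probe summary, background correction or scaling and give no detection calls. Deposited array medians ran from 24.2 to 31.6. After leaving out 183 control probe sets of 18952, values were taken as log2(intensity + 16) and quantile normalized, because array medians differed by 0.24. The dimmest 30% by mean over all 6 arrays were removed, and 13138 probe sets were fitted with limma 3.58.1 in R 4.3.3 (lmFit, eBayes with an intensity trend), 2-sided, with Benjamini-Hochberg adjustment over all of them and a threshold of 0.05. The fit was tested on simulated data. With 3 arrays a group, exact permutation can reach no p smaller than 0.1, so none is given. The number of arrays limits the precision.

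Gene names are those of the platform annotation. All 35 Ugt gene IDs matched the RefSeq gene table (Release 6 plus ISO1 MT) with the same symbol, and former names come from it. No coordinates are given. No probe set named a Ugt gene together with another gene.

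The members and lists were chosen with earlier results of these data known. Array values and tests are given for members past adjusted p 0.05, at unadjusted p under 0.05 or with groups that did not overlap, and for the member whose probe set had the highest mean signal in each family, which served only to choose members. The array values of Ugt35C1 and Ugt37A2 were added after their values were seen. Other members have levels or ranges, with the difference and its SE for some. As alternatives, arrays were median centred or kept as deposited, the pseudocount was 1 or 64, the filter was dropped or set at 50%, eBayes was run without the trend or in its robust form (statmod 1.5.0), arrays were weighted, replicate numbers were blocked, and each array was left out. A count over members with both group means above the filter cutoff was added after seeing the data.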

Additional observations from a re-analysis of the deposited data

How the results depend on the processing

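Of 267 recomputed differences of the 17 tested genes named by the rule, 259 kept their direction. Those that turned were Ugt305A1, at -0.0010 with a pseudocount of 64, -0.10 with array weights and -0.31 to 0.27 with 1 array left out, Ugt316A1, at 0.069 with deposited scaling, and, with 1 array left out, Ugt35B1 (-0.078 to 0.38) and Ugt49B1 (-0.012 to 0.20). The cause was not tested. The median Ugt difference was 0.24 with deposited scaling, where the median of all probe sets was 0.099, and 0.039 to 0.20 with 1 array left out. Ugt genes past adjusted p 0.05 numbered 1 with deposited scaling and 0 to 1 with 1 array left out. Those higher at unadjusted p under 0.05 numbered 3 with median centring (12.5%, against 4.22% of all probe sets), 3 with the 50% filter (18 Ugt genes tested, 16.7% against 5.23%) and 3 to 9 with 1 array left out (all probe sets 2.56% to 6%). There was 1 lower with a pseudocount of 1, with every probe set kept (35 Ugt genes tested), without the trend and with array weights (2.86% to 4.17% of the Ugt genes, against 3.33% to 4.1% of all probe sets), and 0 to 1 with 1 array left out (all probe sets 2.05% to 4.29%). Probe sets past adjusted p 0.05 among all tested numbered 78 with deposited scaling (69 higher, 9 lower), 11 with median centring (11 higher, 0 lower), 1 each with a pseudocount of 64, with every probe set kept and with the 50% filter, 0 without the trend (547 higher and 438 lower at unadjusted p under 0.05), 5 with array weights and 0 to 47 with 1 array left out.

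Same-numbered arrays of the groups correlated in their deviations from the group means at 0.031, 0.088 and 0.27. Of the 6 arrays, 2 correlated best with their own number. These values cannot settle whether same-numbered arrays belong together, and the main fit did not pair them. With the replicate number as a block, 32 of all probe sets passed, where 2 did in the main fit, and 0 Ugt genes passed. At unadjusted p under 0.05, 8 Ugt genes were higher (33.3%, against 6.07% of all probe sets) and 1 lower (4.17%, against 5.11%).

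No detection calls were used, so how far dim signals lie above background is unknown.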
